A study of Mus musculus with 36 samples.

Results

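Transcripts of 10 transcription factors known for intestinal epithelial identity were followed in mouse jejunum organoids: the homeobox factors Cdx1, Cdx2 and Isx, the nuclear receptors Hnf4a and Hnf4g, the zinc finger factors Gata4, Gata6, Klf4 and Klf5, and the HMG-box factor Sox9. They were listed by symbol and matched to 10 of the 52636 gene identifiers in the count tables. A mean of 0.5 CPM, a gene's count scaled to the library's TMM-adjusted total, over all 36 libraries was reached by 9 of them, which were among the 15497 genes tested, and 1, Isx, was not detected by that limit. No detected factor moved by more than 1.5-fold with an adjusted p under 0.05 in any of 6 comparisons between conditions. Some pairs of conditions outside those 6 had means further apart, up to 1.57-fold for Sox9 and 1.504-fold for Cdx1, and were not tested here. At the adjusted p alone, Cdx1 was lower and Sox9 higher with SCM and with Wnt5a than in complete media, and Klf5 was higher with Wnt5a.

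The study asked how factors secreted by senescent cells act on intestinal organoids. Jejunum crypts of 6 C57BL/6 mice gave the organoids, and passaged crypts were kept for 2 days in 6 conditions, with 6 libraries each. Complete media is IntestiCult, an organoid growth medium. QCM and SCM are media conditioned by mouse embryonic fibroblasts that were quiescent (kept in low serum) or senescent (after X-ray irradiation or doxorubicin), concentrated and mixed with IntestiCult; which of the senescence inducers applied to these libraries is not given in the sources used here. Wnt5a, a noncanonical Wnt ligand, was added to complete media. Complete media, QCM, SCM and Wnt5a libraries all received control IgG, and SCM and Wnt5a were also run with an antibody against Ptk7, a Wnt coreceptor of planar cell polarity. No complete media group with anti-Ptk7 was analysed here, so an effect of the antibody alone cannot be told apart from its effect on SCM or Wnt5a. The fibroblasts were embryonic and not intestinal, and the ages of the organoid donors and the doses of Wnt5a and antibody for these libraries are not given in the sources used here.

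Cdx2 and its relative Cdx1 bind regulatory DNA of intestinal genes, and loss of Cdx2 is known to let stomach-like programmes appear in intestinal epithelium. Hnf4a and Hnf4g act together on enterocyte genes of lipid handling and the brush border, and Gata4, expressed in the proximal small intestine, keeps jejunum from taking on ileal expression, while Gata6 is found along the whole intestine. Sox9 marks stem, progenitor and Paneth cells, Klf5 is abundant in proliferating crypt cells, Klf4 in differentiated cells and goblet cells, and Isx is known to repress the carotenoid enzyme Bco1 and the lipid receptor Scarb1.

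The libraries held between 9581589 and 21029769 counts (median 13490071), and the detected factors had between 88 (Klf4) and 16893 (Hnf4a) counts in a library. Epithelial markers were abundant in every group, at summed levels between 5585 and 23072 CPM over Epcam, Cdh1, Krt8, Krt18, Krt20 and Vil1 in a library, whereas 5 of 6 fibroblast markers were under 0.5 mean CPM and all 6 summed to 7.24 CPM at most. The Ptk7 transcript was at 13 ± 4.82 CPM in SCM + IgG and 10.3 ± 4.71 in SCM + anti-Ptk7 (SD, n = 6 each), and since the antibody binds the protein this level does not check the treatment. In whole organoids, fewer cells of a type and less RNA per cell cannot be told apart.

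Levels between factors were compared per kilobase of merged coding sequence, averaged over the 36 libraries. Per the study's methods, gene counts were taken from reads in coding sequence. Cdx1 had the highest level at 651 ± 107 CPM per kb (SD over 36 libraries), followed by Hnf4a at 551 ± 55.7. Klf5 was at 288 ± 52.1, Cdx2 at 237 ± 57.8, Sox9 at 169 ± 32 and Gata4 at 168 ± 19.7 CPM per kb. Hnf4a exceeded Klf5 in all 36 libraries, while the order of the other neighbours was not fixed within libraries: Cdx1 exceeded Hnf4a in 30 of 36, Klf5 exceeded Cdx2 in 26, Cdx2 exceeded Sox9 in 28, and Sox9 exceeded Gata4 in 21. Below them, Gata6 at 70.1 ± 7.58, Hnf4g at 29.7 ± 6.24 and Klf4 at 8.47 ± 1.96 CPM per kb kept their order in all 36 libraries. With merged exon length in place of coding length, an alternative chosen after the data were seen, Cdx2 (97.6 CPM per kb) stood above Klf5 (74.3), the means of the others kept their order, and Gata6 exceeded Hnf4g in 30 of 36 libraries.

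**Figure D1:**
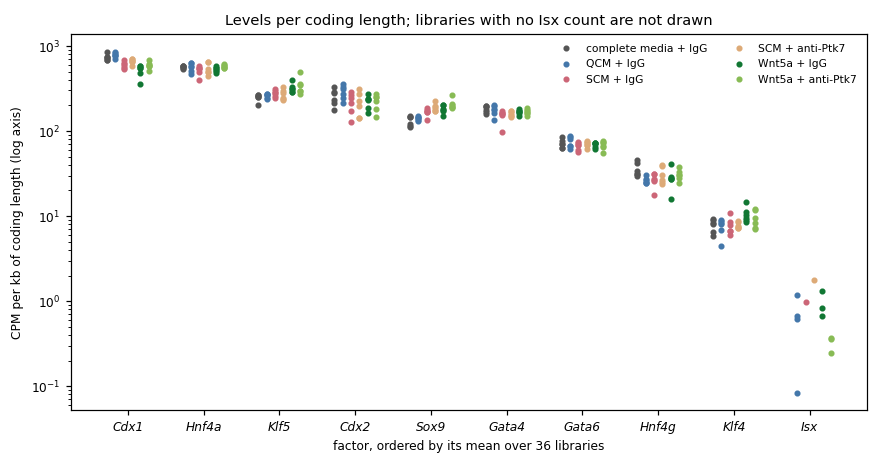
CPM per kb of coding length on a log axis for each of the 10 factors, 1 point per library and 1 colour per condition; factors are ordered by their mean. Cdx1 and Hnf4a lead at 651 and 551 CPM per kb, Klf4 is the lowest detected factor at 8.47, and Isx is drawn only for the 12 libraries in which it had a count.

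Isx (chromosome 8, 74873173 to 74893506, plus strand; all gene positions are GRCm38, GENCODE M21) had no count in 24 of 36 libraries, including all 6 of complete media, where 3 counts, taken as the limit that a count of 0 allows, correspond to between 0.223 and 0.313 CPM. Its counts in the other libraries ran up to 19, in 1 SCM + anti-Ptk7 library whose 5 companions had none. In QCM the 6 libraries held 11, 0, 0, 8, 7 and 1 counts, and in Wnt5a + IgG they held 0, 11, 0, 0, 13 and 9. No fold change is given, because the mean was 0.194 CPM over all libraries and each group with counts also held libraries with none. The transcripts that Isx is known to repress were present: Bco1 was at 18.9 ± 4.2 CPM in complete media and 26.2 ± 7.34 with Wnt5a, a log2 fold change of 0.47 (edgeR adjusted p = 0.043), and Scarb1 was at 176 ± 24.4 and 194 ± 18.3 CPM (log2 fold change 0.14, edgeR adjusted p = 0.32).

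Promoter windows from 250 bases before to 50 bases after the annotated start, as listed by RefSeq for GRCm38.p6, were at hand for 4 of the 10 factors: Cdx2, Hnf4a, Klf4 and Isx. Shown are the 2 windows of Hnf4a, because the gene-level counts add transcripts from both starts, that of Cdx2, the detected factor with the highest coefficient of variation (CV) averaged over conditions, and that of Isx, the factor that was not detected. Capitals mark matches, on either strand, to 6 words: TTTATG for CDX, CAAAGTC for HNF4, AGATAA for GATA factors, CCCACCC for KLF, ACAAAG for SOX and TATAAA for a TATA box.
Hnf4a upstream start, chr2:163506607-163506906, plus strand: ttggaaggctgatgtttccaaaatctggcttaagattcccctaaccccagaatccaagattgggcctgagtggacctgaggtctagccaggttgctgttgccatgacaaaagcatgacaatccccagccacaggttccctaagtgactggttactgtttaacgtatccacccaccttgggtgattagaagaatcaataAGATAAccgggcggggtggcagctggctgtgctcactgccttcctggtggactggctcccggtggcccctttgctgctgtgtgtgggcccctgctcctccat
Hnf4a downstream start, chr2:163546905-163547204, plus strand: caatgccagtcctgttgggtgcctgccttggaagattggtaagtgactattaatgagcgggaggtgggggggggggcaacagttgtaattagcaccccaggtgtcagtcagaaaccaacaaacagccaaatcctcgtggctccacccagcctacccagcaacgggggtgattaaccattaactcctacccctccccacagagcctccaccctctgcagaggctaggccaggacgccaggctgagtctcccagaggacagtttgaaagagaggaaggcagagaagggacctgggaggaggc
Cdx2, chr5:147307200-147307499, minus strand: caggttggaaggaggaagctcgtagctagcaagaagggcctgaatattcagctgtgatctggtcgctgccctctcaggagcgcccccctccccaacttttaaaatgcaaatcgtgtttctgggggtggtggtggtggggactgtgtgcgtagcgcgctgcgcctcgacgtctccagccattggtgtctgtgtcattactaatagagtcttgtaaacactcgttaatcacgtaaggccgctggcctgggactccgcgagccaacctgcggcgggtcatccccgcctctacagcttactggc
Isx, chr8:74872924-74873223, plus strand: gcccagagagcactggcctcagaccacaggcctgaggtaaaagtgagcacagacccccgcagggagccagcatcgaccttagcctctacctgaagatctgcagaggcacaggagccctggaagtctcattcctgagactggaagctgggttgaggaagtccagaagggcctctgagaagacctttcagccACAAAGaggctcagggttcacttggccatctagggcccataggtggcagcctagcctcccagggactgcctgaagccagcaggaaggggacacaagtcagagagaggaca

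The upstream Hnf4a window held AGATAA 52 bases before the start, a word found in 11.2% of 32851 windows of the same length. The Isx window held ACAAAG 60 bases before the start, found in 18.7% of windows. The downstream Hnf4a window, the Cdx2 window and the Klf4 window held none of the 6 words, which says only that these letters were not in those 300 bases. Cdx2 had 18 CG pairs and Isx 2, beside a median of 7 over all windows; Klf4, with 40, was the most CG-rich of the 5 windows.

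Cdx1 was lower with SCM and with Wnt5a than in complete media. Its 6 complete media libraries had 549.6 CPM at the lowest, 590.5 at the median and 678 at the highest. With SCM + IgG the lowest, median and highest libraries were at 427, 480.3 and 557 CPM, and with Wnt5a + IgG at 285, 444 and 474. All 6 Wnt5a libraries were therefore below all 6 complete media libraries, whereas 1 SCM library, at 557, reached into the complete media range. In the same order the means were 594 ± 46.5, 481 ± 46.6 and 418 ± 71.9 CPM (SD, n = 6 each). The log2 fold change was -0.30 (SE 0.09, edgeR adjusted p = 0.023) for SCM and -0.50 (SE 0.09, edgeR adjusted p = 9.6e-05) for Wnt5a. Neither passed a fold change of 1.5, and the 95% interval for Wnt5a, -0.69 to -0.32, reached beyond it.

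Cdx1 was not lower on average in QCM. Its 6 QCM libraries were at 558 to 693 CPM with a median of 629, and the log2 fold change against complete media was 0.08, with a 95% interval of -0.10 to 0.26 (edgeR adjusted p = 0.78). Against QCM, the log2 fold change of Cdx1 with SCM was -0.39 (SE 0.09, edgeR adjusted p = 0.022), and every SCM library was below every QCM library. This p rose to between 0.059 and 0.082 when 1 of 4 libraries was left out, QCM + IgG replicate 2, 3 or 4 or SCM + IgG replicate 1; the p against complete media became 0.054 without SCM + IgG replicate 1 or 6.

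With anti-Ptk7, Cdx1 was at 535 ± 37.7 CPM in SCM and 481 ± 46.6 in Wnt5a (SD, n = 6 each), in each case above the mean with IgG. The log2 differences, 0.15 (95% interval -0.03 to 0.33, edgeR adjusted p = 0.39) and 0.20 (0.02 to 0.38, edgeR adjusted p = 0.26), did not pass the test over all genes. In the order of the means, Wnt5a + anti-Ptk7 and SCM + IgG differed by 0.461 CPM beside a pooled SD of 46.6, and complete media and QCM by 35.4 beside 46.1, so these neighbours were not separated beyond their spread. Cdx1 lies on chromosome 18 (61018862 to 61036199, minus strand).

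Cdx2, on chromosome 5 (147300805 to 147307270, minus strand), had the highest CV of the detected factors when averaged over the 6 conditions, 23.3%, with 17.6 to 32% in single conditions. In 3 conditions others spread more: Klf4 in QCM (22.7%), Hnf4g (28.1%) and Klf4 (21.8%) in Wnt5a + IgG, and Klf4 (23.3%) and Klf5 (23.2%) in Wnt5a + anti-Ptk7. Its libraries ran from 163 to 308 CPM in complete media (median 241), from 201 to 331 in QCM (median 274) and from 119 to 272 in SCM + IgG (median 213). The Wnt5a + IgG libraries, at 153 to 251 CPM (median 219), overlapped the complete media range. No comparison of Cdx2 passed the test, and in 3 comparisons the interval reached beyond a 1.5-fold difference: the log2 fold change was -0.21 for SCM against complete media (95% interval -0.61 to 0.18), -0.20 for Wnt5a (-0.60 to 0.19) and -0.39 for SCM against QCM (-0.79 to -0.00222, edgeR adjusted p = 0.29). With anti-Ptk7 it differed from IgG by -0.02 in SCM (-0.42 to 0.37) and 0.01 in Wnt5a (-0.39 to 0.40).

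Sox9, on chromosome 11 (112782224 to 112787760, plus strand), went the other way. Complete media libraries had 171 CPM at the lowest, 203 at the median and 226 at the highest. SCM + IgG libraries had 207, 260.2 and 282 CPM, and Wnt5a + IgG libraries 230.3, 275 and 308. Every Wnt5a library was above every complete media library, and of the SCM libraries only replicate 1, at 207 CPM, was inside the complete media range. The means were 200 ± 26, 255 ± 25.8 and 275 ± 29.3 CPM (SD, n = 6 each). The log2 fold change was 0.35 for SCM (SE 0.09, edgeR adjusted p = 0.0079) and 0.46 for Wnt5a (SE 0.09, edgeR adjusted p = 3.0e-04), again short of 1.5-fold.

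In QCM, Sox9 was at 214 ± 10.7 CPM, 0.10 above complete media on the log2 scale (95% interval -0.08 to 0.28, edgeR adjusted p = 0.72). SCM exceeded QCM by 0.25 (0.07 to 0.43, edgeR adjusted p = 0.13); with all 6 libraries numbered 1 left out, an alternative chosen after the data were seen, this difference was 0.30 with an edgeR adjusted p of 0.019. The highest Sox9 means were those with the antibody, 287 ± 29.8 CPM in SCM + anti-Ptk7 and 314 ± 43.6 in Wnt5a + anti-Ptk7. These lay 0.17 (95% interval -0.01 to 0.35, edgeR adjusted p = 0.33) and 0.19 (0.01 to 0.37, edgeR adjusted p = 0.31) above IgG on the log2 scale and did not pass the test. Without the libraries numbered 1 the first was 0.05 (edgeR adjusted p = 0.83), as replicate 1 had 339.6 CPM with anti-Ptk7 and 207 with IgG, and the second 0.14 (edgeR adjusted p = 0.42). Apart from the step from QCM to SCM, each neighbouring pair in the order of the 6 Sox9 means was closer than its pooled SD.

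Klf5, on chromosome 14 (99298691 to 99315036, plus strand), had 274, 345 and 356 CPM at the lowest, median and highest complete media library. The corresponding values were 391, 416 and 533 with Wnt5a + IgG, without overlap. The means were 336 ± 30.9 and 432 ± 53.4 CPM, and the log2 fold change was 0.37 (SE 0.11, edgeR adjusted p = 0.011). That p was 0.053 without complete media + IgG replicate 2 and 0.063 without Wnt5a + IgG replicate 1, the lowest and the highest of these libraries. With SCM, Klf5 was at 375 ± 33.1 CPM (log2 fold change 0.16, 95% interval -0.05 to 0.38, edgeR adjusted p = 0.37), and with QCM at 350.0 ± 19.5. The Wnt5a + anti-Ptk7 mean was 462 ± 107 CPM, in which replicate 1 at 660.3 stood far above the other 5, at 362 to 481.

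Klf4, on chromosome 4 (55527143 to 55532466, minus strand), had the lowest level per kb of the detected factors and was at 11 to 11.3 CPM on average in complete media, QCM and both SCM groups. The Wnt5a + IgG libraries had 12.3, 14.4 and 21.4 CPM at the lowest, median and highest, and complete media libraries 8.46, 11.8 and 13.4. The log2 fold change of 0.43 (95% interval 0.08 to 0.77) had an edgeR adjusted p of 0.069 and did not pass. Leaving out Wnt5a + IgG replicate 2, the lowest of that group, gave 0.048, whereas without the 6 libraries numbered 1 the log2 fold change was 0.31 with an edgeR adjusted p of 0.27.

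Hnf4a, on chromosome 2 (163506808 to 163572910, plus strand), had condition means between 786 and 873 CPM. Complete media libraries ran from 817 to 894 CPM (median 866), SCM + IgG libraries from 597 to 878 (median 824) and Wnt5a + IgG libraries from 727 to 890.2 (median 813). In SCM + IgG the lowest library was replicate 1, at 597, and the other 5 were at 746 or more. The log2 fold changes were 0.00304 for QCM (95% interval -0.17 to 0.18), -0.13 for SCM (-0.30 to 0.05) and -0.08 for Wnt5a (-0.26 to 0.09), and in the 2 antibody comparisons they were 0.07 (-0.11 to 0.24) and 0.11 (-0.06 to 0.29). All of these intervals lay inside a 1.5-fold change in either direction.

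Hnf4g, on chromosome 3 (3508030 to 3658052, plus strand), had lower means in all 5 other conditions than in complete media. Complete media libraries had 40.7, 45.0 and 63.5 CPM at the lowest, median and highest, QCM libraries 34.4, 35.9 and 42.6, and SCM + IgG libraries 24.3, 37.3 and 43.7. The ranges overlapped in each comparison. The log2 fold changes against complete media were -0.42 for QCM (95% interval -0.74 to -0.10, edgeR adjusted p = 0.24), -0.41 for SCM (-0.74 to -0.09, edgeR adjusted p = 0.086) and -0.33 for Wnt5a (-0.65 to -0.00868, edgeR adjusted p = 0.14). With 1 library left out, SCM passed without Wnt5a + IgG replicate 1 (edgeR adjusted p = 0.041) and Wnt5a without Wnt5a + IgG replicate 2 (0.028).

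Gata4, on chromosome 14 (63198922 to 63271692, minus strand), was at 240 ± 21.2 CPM in complete media and 201 ± 37.0 in SCM + IgG. The SCM libraries had 128, 214 and 231 CPM at the lowest, median and highest, beside 210.0, 244 and 261 in complete media. The low end was replicate 1, and the other 5 SCM libraries were at 203 to 231. The log2 fold change was -0.26 (95% interval -0.46 to -0.06) with an edgeR adjusted p of 0.086; with the 6 libraries numbered 1 left out it was -0.19 (edgeR adjusted p = 0.065), and without SCM + IgG replicate 5 alone it passed (0.043). With Wnt5a, Gata4 was at 223 ± 14.5 CPM (log2 fold change -0.11, -0.31 to 0.09). Gata6, on chromosome 18 (11052064 to 11085635, plus strand), had condition means from 118 to 132 CPM, with libraries between 97.0 and 154, and each of its 6 intervals lay within 1.5-fold.

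**Figure D2:**
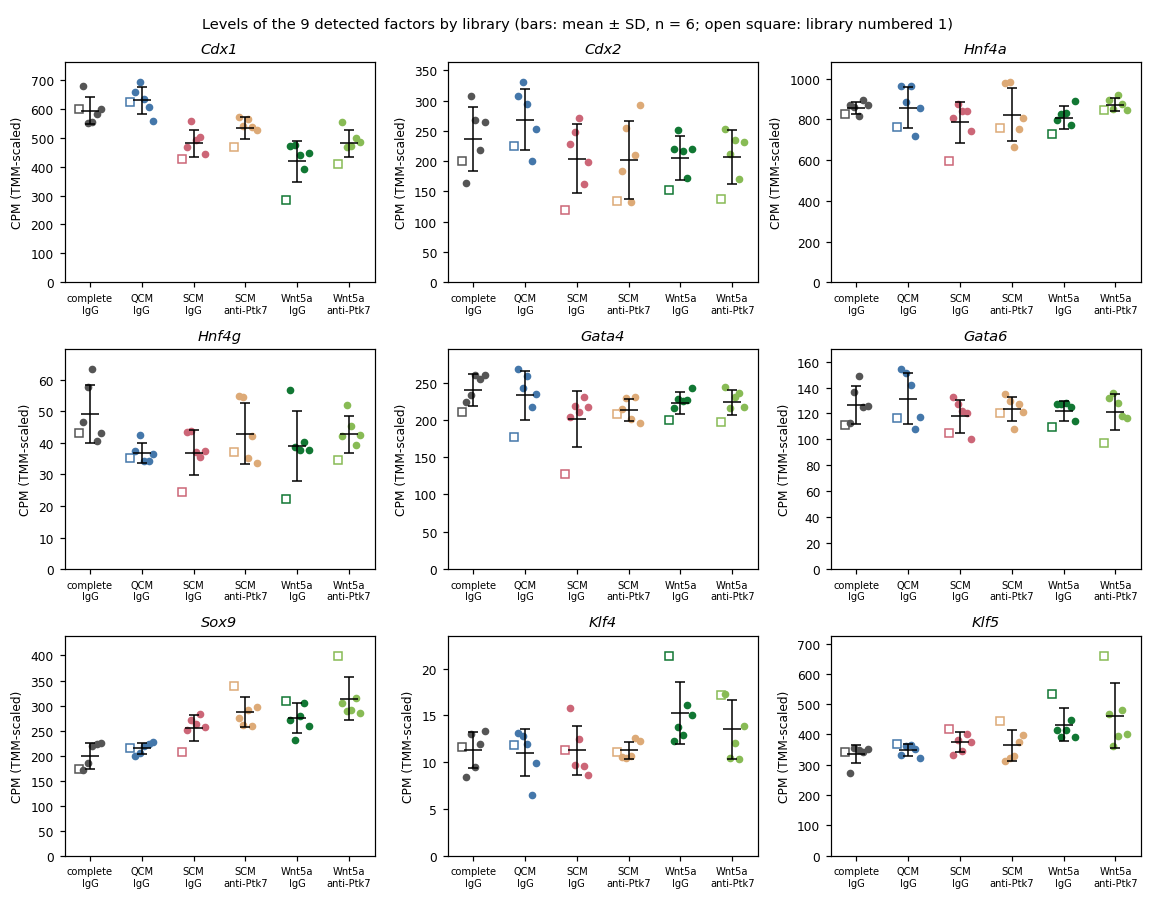
TMM-scaled CPM of the 9 detected factors in each of 36 libraries, by condition, on axes that start at 0; black bars are the mean ± SD of 6 libraries, and the open square is the library numbered 1. Cdx1 is lower and Sox9 higher in the SCM and Wnt5a groups than in complete media, while Hnf4a keeps means of 786 to 873 CPM.

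Counted together, 0 of the 9 factors met both cutoffs, 0.05 for the adjusted p and 1.5 for the fold change, in each comparison. Over all genes tested the share called by this rule was 0.374% for QCM against complete media, 6.08% for SCM against complete media, 10.2% for Wnt5a against complete media, 0.903% for SCM against QCM, 1.23% for anti-Ptk7 in SCM and 0.884% for anti-Ptk7 in Wnt5a. By the adjusted p alone, 2 of 9 passed with SCM (11.9% of all genes), 3 of 9 with Wnt5a (21.8%) and 1 of 9 for SCM against QCM (1.72%). None passed with QCM (0.658%), with anti-Ptk7 in SCM (2.72%) or with anti-Ptk7 in Wnt5a (2.57%); at an unadjusted edgeR p under 0.05 these counts were 1, 0 and 2, beside 1858, 2654 and 2332 of the 15497 genes. At the same limit 4 factors passed with SCM, 5 with Wnt5a and 4 for SCM against QCM, beside 3825, 5133 and 2633 genes. DESeq2 and voom with limma also called 0 of 9 at both cutoffs in each of the 6 comparisons. The first 3 comparisons share the complete media libraries, and the SCM + IgG libraries stand in 3 of the 6. Pairs outside the 6 were not tested. Among them the Sox9 mean was 1.57 times as high in Wnt5a + anti-Ptk7 as in complete media. The Cdx1 mean was 1.504 times as high in QCM as in Wnt5a + IgG.

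Without overlap between the 6 libraries of each group were 3 of 9 factors for Wnt5a against complete media (11.7% of all genes), 1 of 9 for SCM against QCM (2.19%) and 0 for SCM against complete media (6.29%). The median log2 fold change of the 9 factors was -0.13 for SCM against complete media and -0.08 for Wnt5a, beside 0.01 and 0.01 over all genes. The median size regardless of sign was 0.21 and 0.33, beside 0.20 and 0.25 over all genes. A test of any difference among the 6 conditions passed for Cdx1 (edgeR adjusted p = 1.6e-05), Sox9 (1.9e-06) and Klf5 (0.0024), 3 of 9 factors beside 39.5% of all genes. Without the libraries numbered 1 Gata4 passed as well (edgeR adjusted p = 0.035), making 4 of 9 beside 33% of 15538 genes.

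**Figure D3:**
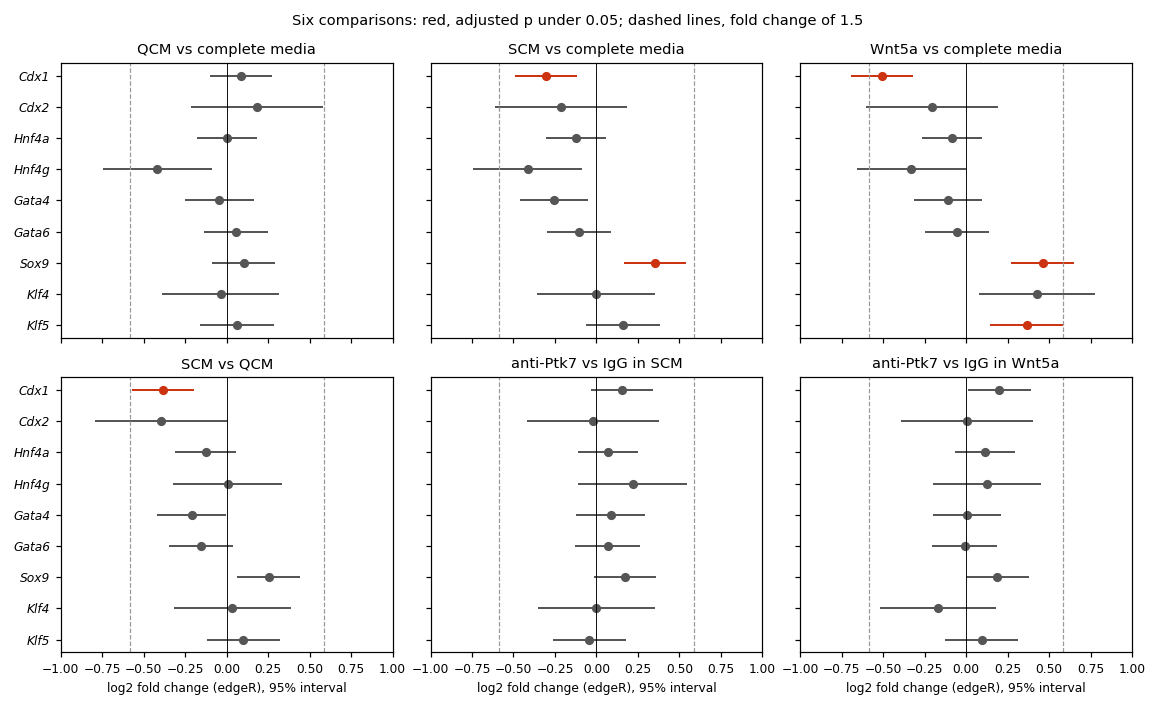
Log2 fold change with its 95% interval from edgeR for the 9 detected factors (rows) in each of 6 comparisons (panels); red marks an adjusted p under 0.05, and dashed lines a 1.5-fold change. The red points are Cdx1 and Sox9 for SCM, Cdx1, Sox9 and Klf5 for Wnt5a, and Cdx1 for SCM against QCM, and no point lies beyond a dashed line.

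In both antibody comparisons all 9 intervals lay within a 1.5-fold change, the widest bounds being 0.54 for Hnf4g in SCM and -0.51 for Klf4 in Wnt5a on the log2 scale. The share of all genes with such intervals was not counted, so this does not set the factors apart from other genes. The antibody effect in Wnt5a less that in SCM was tested directly. It passed for none of the 9 factors and for 0% of all genes, with 0 factors and 602 genes at an unadjusted edgeR p under 0.05. The largest such difference was -0.17 for Klf4 (95% interval -0.66 to 0.32).

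Related factors were also compared within each library, as the log2 ratio of their CPM, which does not depend on how libraries are scaled. None of 24 differences in a ratio passed after adjustment by two-sided exact permutation tests of 6 against 6 libraries. The ratio of Hnf4a to Hnf4g was 4.14 ± 0.29 in complete media and 4.53 ± 0.18 in QCM (log2, SD, n = 6 each), a difference of 0.40 (exact p = 0.011, adjusted p = 0.26). The ratio of Cdx1 to Cdx2 was 1.35 ± 0.43 in complete media and 1.02 ± 0.11 with Wnt5a (exact p = 0.097, adjusted p = 0.47), although Cdx1 passed the test on its own and Cdx2 did not. The condition means of Gata4 to Gata6 lay between 0.75 and 0.93, with libraries from 0.28 to 1.11, and those of Klf4 to Klf5 between -5.08 and -4.83, with libraries from -5.74 to -4.37.

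**Figure D4:**
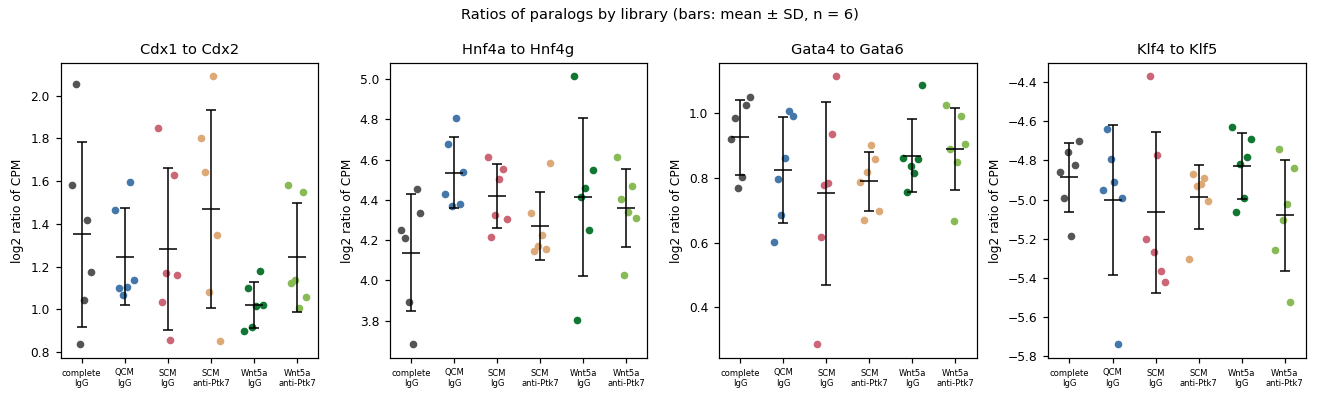
Log2 ratio of CPM of 4 related pairs in each library, by condition, with the mean ± SD of 6 libraries. The Hnf4a to Hnf4g ratio is lowest on average in complete media (4.14) and highest in QCM (4.53), with overlapping libraries, and the Cdx1 to Cdx2 ratio has its smallest spread with Wnt5a + IgG.

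The libraries carry replicate numbers 1 to 6 in each condition, and several factors followed these numbers. The organoids came from 6 mice numbered 1 to 6, but whether a library's number is that of its mouse is not given in the sources used here. The library numbered 1 was below its condition mean in all 6 conditions for 5 of 9 factors, Cdx2, Hnf4a, Hnf4g, Gata4 and Gata6, beside 7.38% of all genes, and above it in all 6 for Klf5, beside 9.59% of all genes. On average it lay 0.45 below the condition mean for Cdx2, 0.34 for Hnf4g, 0.26 for Gata4, 0.17 for Gata6 and 0.15 for Hnf4a on the log2 scale, and 0.24 above it for Klf5. The library numbered 3 was above the mean in all 6 conditions for Cdx2 (by 0.31 on average), Hnf4g (0.24) and Gata6 (0.13), beside 5.72% of all genes. In all 6 conditions Klf5 was also above the mean in the library numbered 5 (by 0.06, beside 4.37% of all genes), and below it were Sox9 in that numbered 2 (by 0.07, beside 3.71%) and Gata6 in that numbered 6 (by 0.09, beside 2.43%). In a model with condition and replicate number, a choice made after these values were seen, the number passed for Cdx2 (edgeR adjusted p = 0.0015), Hnf4g (0.0078), Klf5 (0.010), Gata6 (0.016) and Gata4 (0.019), 5 of 9 factors beside 13.5% of all genes. Cdx1 (0.057), Hnf4a (0.17), Sox9 (0.59) and Klf4 (0.76) did not pass.

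Cell type markers also differed in the libraries numbered 1, the only number for which they were summed. In the libraries numbered 1 the summed stem cell, enterocyte and goblet cell markers were below the condition mean in 6 of 6 conditions, by 0.55, 0.36 and 0.39 on average on the log2 scale, and the epithelial markers, which include 3 keratins, were above it in 6 of 6, by 0.43. The Paneth cell, enteroendocrine and proliferation markers were below it in 5 of 6, by 0.31, 0.34 and 0.12. Tuft cell markers were above it in 4 of 6, by 0.11. Their part in the levels of the factors was not tested. Leaving out the 6 libraries numbered 1 kept Cdx1 (-0.41) and Sox9 (0.39) past the test for Wnt5a against complete media (edgeR adjusted p = 6.3e-05 and 3.4e-04), and Klf5 as well (0.30, edgeR adjusted p = 0.011). After removal of the condition means, the 10 pairs among Cdx2, Hnf4a, Hnf4g, Gata4 and Gata6 had Pearson correlations of 0.47 to 0.70 over 36 libraries, and 0.02 to 0.58 over the 30 libraries numbered 2 to 6; within a library the factors share its depth and its cells, and the 5 factors were picked after their values were seen.

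**Figure D5:**
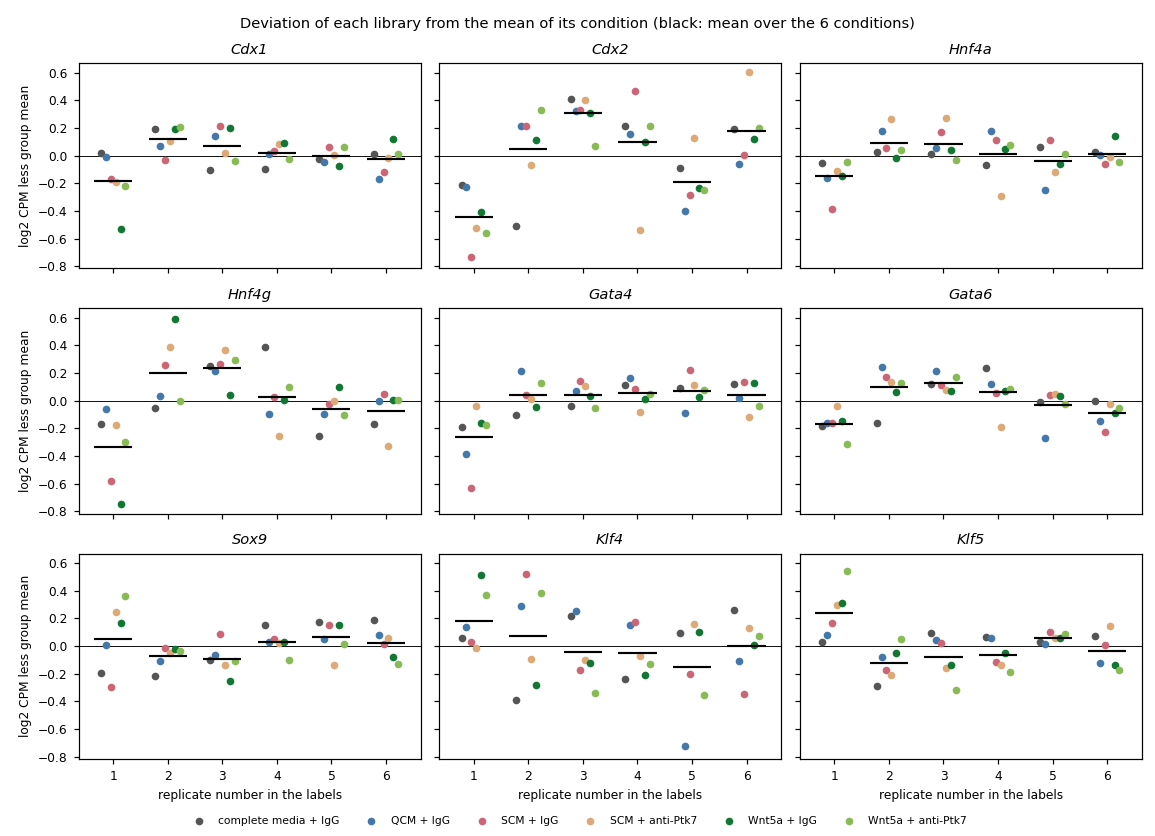
Log2 CPM of each library less the mean of its condition, against the replicate number in the labels, with 1 colour per condition and a black line at the mean over the 6 conditions. For Cdx2, Hnf4a, Hnf4g, Gata4 and Gata6 all 6 points at number 1 are below 0, and for Klf5 all 6 are above it.

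Between SCM or Wnt5a and complete media some of the cell type markers moved as well. Over all genes 6.08% were called with SCM and 10.2% with Wnt5a, and 11.9% and 21.8% passed the adjusted p at any fold. The stem cell markers summed to 2017 ± 235 CPM in complete media, 1600 ± 319 in SCM + IgG and 1648 ± 418 in Wnt5a + IgG, and of 5 such genes 1 was called lower in each comparison, Smoc2. Ascl2, of the same list, was higher by the adjusted p alone, by 0.51 with SCM (edgeR adjusted p = 0.0099) and 0.41 with Wnt5a (edgeR adjusted p = 0.023). The epithelial sum was 6183 ± 621 CPM in complete media, 10062 ± 1662 in SCM + IgG and 11446 ± 3036 in Wnt5a + IgG, with 3 and 4 of 6 genes called higher. The enterocyte sum, 1691 ± 326 CPM in complete media, was 2241 ± 323 in SCM + IgG and 1815 ± 391 in Wnt5a + IgG, and the Paneth cell sum, 4019 ± 210 CPM, was 3956 ± 428 and 3298 ± 729, while Mmp7 of that list was called higher in both (1.23 and 0.89). Mmp7 was also called higher with SCM than with QCM (0.68, edgeR adjusted p = 0.022). Lyz1 (-0.35, edgeR adjusted p = 0.040) and Itln1 (-0.36, edgeR adjusted p = 0.047) of the Paneth list were lower with Wnt5a by the adjusted p alone, and Lyz1 was also lower with anti-Ptk7 than with IgG in SCM (-0.54, by the adjusted p alone) and in Wnt5a (-0.63, called), with overlapping libraries. The goblet cell sum was 1580 ± 175 CPM in complete media, 1543 ± 278 in SCM + IgG and 1557 ± 291 in Wnt5a + IgG, with none of 5 genes past the test. The proliferation sum was 1020 ± 102, 904 ± 78.9 and 942 ± 53.1 CPM, and of its 5 genes Cdk1 was lower with Wnt5a by the adjusted p alone (-0.34, edgeR adjusted p = 0.0018). In Wnt5a, Cdk1 was also lower with anti-Ptk7 than with IgG by the adjusted p alone (-0.32, edgeR adjusted p = 0.019). The tuft cell sum was 7.15 ± 2.64 CPM in complete media and 14 ± 2.37 with Wnt5a, where Dclk1 and Trpm5 were called higher with overlapping libraries. The enteroendocrine sum was 368 ± 65.2 CPM in complete media, 374 ± 63.6 in SCM + IgG and 385 ± 40.2 in Wnt5a + IgG, and of its 5 genes 1 was called, Neurog3, an enteroendocrine progenitor factor, lower with SCM (-0.83, with overlapping libraries) and Wnt5a (-1.33). These genes were picked after their values were seen. Their part in the differences of Cdx1, Sox9 and Klf5 was not tested.

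Other transcription factors of the intestine, a list of 22 genes that were all detected, held genes with larger differences. With SCM 3 were called higher and 1 lower than in complete media, and with Wnt5a 3 higher and 0 lower, beside 6.08% and 10.2% of all genes called; the list's median log2 fold changes were 0.02 and 0.11, beside 0.01 over all genes in both. Creb3l3, a regulator of lipid and fasting genes, was at 41.9 ± 7.05 CPM in complete media and 104 ± 23.3 in SCM + IgG, a log2 fold change of 1.32 (edgeR adjusted p = 6.1e-06), and it was also higher with Wnt5a (0.89, edgeR adjusted p = 4.8e-04) and with QCM (0.93, edgeR adjusted p = 0.0060), the only gene of the list called there. Onecut2 was higher by 1.07 with SCM (edgeR adjusted p = 0.028) and by 1.84 with Wnt5a (edgeR adjusted p = 1.2e-04). Vdr, the vitamin D receptor, fell by 0.81 with SCM (edgeR adjusted p = 2.6e-04), and with Wnt5a it fell by 0.57 (edgeR adjusted p = 0.0040), short of the 1.5-fold cutoff and with no overlap between libraries. The remaining call in each was Gata5, named here to complete the count, at 0.71 and 0.81 with overlapping libraries. None was called for SCM against QCM or with the antibody in SCM or Wnt5a, beside 0.903%, 1.23% and 0.884% of all genes.

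Of 19 relatives from the Cdx, Gata, Sox and Klf families, 10 were tested and 9, among them Cdx4, Gata1, Gata2, Gata3 and Sox2, were under 0.5 mean CPM. With SCM 3 of the 10 were called higher and with Wnt5a 4, beside 6.08% and 10.2% of all genes called, and none was called lower or in the other 4 comparisons (medians 0.09 with SCM and 0.26 with Wnt5a, beside 0.01 over all genes in both). In those other 4 comparisons between 0.374% and 1.23% of all genes were called. Sox21 had 16.6 ± 7.45 CPM in complete media, against 50.8 ± 21 in SCM + IgG and 78.5 ± 39.9 in Wnt5a + IgG, log2 fold changes of 1.61 (edgeR adjusted p = 0.0020) and 2.24 (edgeR adjusted p = 2.4e-05). Klf10 rose by 0.79 (edgeR adjusted p = 6.9e-06) and 0.90 (edgeR adjusted p = 4.2e-07), and Klf6 by 1.44 with Wnt5a (edgeR adjusted p = 3.9e-04). The other calls, named to complete the count, were Klf6 with SCM (1.24) and Klf9 with Wnt5a (0.82), both with overlapping libraries.

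Enterocyte genes known as Cdx2 or Hnf4 targets, 16 in all, were called as follows: 3 higher with QCM, 6 higher and 2 lower with SCM, and 5 higher and 1 lower with Wnt5a (medians 0.09, 0.25 and 0.13, beside 0.02, 0.01 and 0.01 over all genes). Over all genes 0.374%, 6.08% and 10.2% were called, and the calls were also mostly higher, 55 higher and 3 lower with QCM, 768 and 174 with SCM, and 1285 and 291 with Wnt5a. Voom after quantile normalisation gave fewer higher and more lower calls, 33 and 6 with QCM, 550 and 297 with SCM, and 1015 and 562 with Wnt5a. Alpi, intestinal alkaline phosphatase, had 54.4 ± 9.56 CPM in complete media, against 98.5 ± 14.2 in QCM, 130 ± 23.7 in SCM + IgG and 110 ± 20.7 in Wnt5a + IgG. The fatty acid binding protein Fabp1 (log2 fold change 1.09, edgeR adjusted p = 7.7e-06) and the apolipoprotein Apoa4 (1.15, edgeR adjusted p = 1.3e-05) were higher with SCM, and Apob was higher with Wnt5a (1.29, edgeR adjusted p = 1.0e-05). The aminopeptidase Anpep moved against them and was lower with SCM (-1.46, edgeR adjusted p = 1.2e-04) and with Wnt5a (-0.91, edgeR adjusted p = 0.0066), and Mep1a, a brush border protease, was lower with SCM (-0.86, edgeR adjusted p = 0.035, with overlapping libraries). In SCM the antibody groups differed for 2 of the 16, beside 1.23% of all genes called. Mep1a was 1.36 higher with anti-Ptk7 (edgeR adjusted p = 0.0047), and Alpi was 0.59 lower with overlapping libraries. In Wnt5a, Alpi was the only one called, 0.72 lower with anti-Ptk7 and overlapping libraries, beside 0.884% of all genes.

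For the neighbouring gut regions, 12 stomach genes and 4 ileal genes were followed. Of the stomach genes 5 were tested, while 7, including Sox2 and the mucins Muc5ac and Muc6, were under 0.5 mean CPM. Ctse, a gastric protease, had 0.217 ± 0.436 CPM in complete media, against 9.17 ± 7.65 in SCM + IgG and 61.9 ± 42.9 in Wnt5a + IgG, and Gkn3, Tff1 and Anxa10 were also called higher in both comparisons, Tff1 and Anxa10 with overlapping libraries in SCM. Ctse and Tff1, at 0.325 CPM, were under 0.5 CPM in complete media and entered the test through the groups in which they were higher, so the count of tested stomach genes that were called is no measure of the list. With QCM 1 of the 5 was called higher, Gkn3, beside 0.374% of all genes called. For SCM against QCM 2 were, Gkn3 and, with overlapping libraries, Ctse, beside 0.903%. Against complete media 6.08% of all genes were called with SCM and 10.2% with Wnt5a. Of 3 tested ileal genes none was called against complete media, and the bile acid transporter Slc10a2 was lower with anti-Ptk7 in SCM, at 2.04 ± 0.869 CPM against 5.45 ± 1.92 with IgG (log2 fold change -1.41, edgeR adjusted p = 0.026).

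The genes outside the set whose log2 CPM was most like each factor over the 36 libraries are given as a description, since the libraries share conditions and, within each, depth. Cdx1 was closest to Ndufv1 (Pearson r = 0.94, Spearman rho = 0.91). Cdx2 was closest to Mpst (0.89 and 0.90) and Pkdcc (0.84 and 0.84), and Klf5 to Marcksl1 (0.92 and 0.85) and Qsox1 (0.92 and 0.82). Sox9 was closest to Heph (0.90 and 0.88), which encodes the iron oxidase hephaestin and stood in the enterocyte list, and to Acsl3 (0.89 and 0.90). For Hnf4a (Plcb3 and Clic6), Hnf4g (Npc1l1 and Pdk2), Gata4 (Xxylt1 and Gm15441), Gata6 (Acot2 and Ttyh3) and Klf4 (Sowahc and Pkp2) the Pearson correlations were lower, from 0.73 to 0.80.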

How the data were processed

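RNA was measured in 36 libraries of jejunum organoids, 6 in each of 6 conditions. Per the labels and the study's methods, cDNA was made with the SMART-Seq v4 kit and libraries with Nextera XT, without molecular identifiers or strand information, so antisense and overlapping genes cannot be told apart. Reads were aligned by the authors to mm10 with GSNAP, and the deposited tables hold raw counts per Ensembl gene. Rows were matched to symbols with GENCODE M21. The 10 factors and the gene lists were chosen with earlier results of these data known.

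Counts were scaled by TMM and tested with the quasi-likelihood test of edgeR 4.0.16 (R 4.3.3; filterByExpr, 1 mean per condition, two-sided), with Benjamini-Hochberg adjustment over 15497 genes. Calls needed an adjusted p below 0.05 together with a change beyond 1.5-fold. Alternatives used DESeq2 1.42.0, voom with limma 3.58.1, other scalings and filters, the replicate block, and each library left out. The model was tested on simulated counts with known changes, in which libraries had no effect of replicate number. The permutation test was tested on a constructed case with a known p. Intervals of fold changes are 95% intervals. From each list at most 4 genes per comparison were named, those called with the largest fold change and no overlap between libraries; for each factor the 2 genes of highest Pearson correlation were named, except 1 gene that is not reported here.

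Main tests did not pair libraries: replicate numbers are shared across conditions, and no label ties a number to a mouse. P-values measure the spread between these libraries.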

Additional observations from a re-analysis of the deposited data

Results flagged for a closer look

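In 5 of 54 sets of 6 libraries (9 factors in 6 conditions), 1 library lay far from the other 5. Chance gives about 1 in 20 such sets if they are independent. These sets share the same libraries between factors, so the count cannot be judged against that rate. In SCM + IgG, replicate 1 had 24.3 CPM of Hnf4g, where the others had 35.7 to 43.7. The same library had 128 CPM of Gata4, against 203 to 231, and 207 CPM of Sox9, against 252 to 282. In Wnt5a + anti-Ptk7, replicate 1 had 399.8 CPM of Sox9, against 285 to 314. In complete media + IgG, replicate 2 had 274 CPM of Klf5, against 341 to 356. The causes were not tested.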

How the results depend on the processing

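Over 3396 recomputed values of single factors, 3380 kept their direction where called and their side of the threshold, 8 lost and 8 gained an adjusted p under 0.05, and 0 reversed; 154 values past the test in neither setting changed sign. Without a fold-change cutoff 2 factors were called for SCM, 3 for Wnt5a and 1 for SCM against QCM. The libraries share replicate numbers, and with the number as a block 5 factors varied over the 6 conditions in place of 3 (44.1% of all genes in place of 39.5%), Cdx2 and Hnf4g being added. In that block Hnf4g passed for SCM (-0.43, edgeR adjusted p = 0.013) and Wnt5a (-0.35, 0.032) and Gata4 for SCM (-0.27, 0.015), and no other call of a factor changed. Deviations from condition means correlated at 0.092 on average over 90 pairs of libraries of the same number, 34 of them over 0.1, and at -0.018 over 450 of different numbers, and 16 of 36 libraries correlated best with their own number, which is a hint from the data and not from the design. Cdx1 and Sox9 for Wnt5a and Sox9 for SCM passed in all 46 alternatives, with highest adjusted p-values of 0.0031, 0.0033 and 0.039 by the tools named. Calls gained with 1 library left out were Hnf4g for SCM without Wnt5a + IgG replicate 1 (edgeR adjusted p = 0.041), Gata4 for SCM without SCM + IgG replicate 5 (0.043), Hnf4g for Wnt5a without Wnt5a + IgG replicate 2 (0.028) and Klf4 for Wnt5a without that library (0.048). The cause was not tested.

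Calls over all genes differed by over 1.5 times as follows. For QCM against complete media they were 58, but 178 with the replicate block and 123 without the libraries numbered 1. For SCM against QCM they were 140, but 263 with DESeq2, 278 without the libraries numbered 1, 265 with only the compared groups and 496 with the block. For anti-Ptk7 in SCM they were 190, but 295, 86 and 399 with DESeq2, only the compared groups and the block, and in Wnt5a 137, but 255 with the block. Depth limits Isx, with 103 counts in all libraries.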
